A study of Mus musculus with 2 samples.

Results

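The amyloid and tau pathway genes examined here are 9 mouse genes with established roles in Alzheimer's disease: App, Psen2, Bace1, Adam10, Mapt, Gsk3b, Cdk5, Apoe, and Ncstn. They were chosen by name, with earlier results of these data known. All 9 were found among the 21887 protein-coding genes that RefSeq places on the assembled chromosomes of GRCm38. The submitters' processing notes name mm10, which corresponds to this assembly. Every peak that overlapped a gene or lay within 10 kb of it was assigned to that gene, which gave 6 of the 5326 peaks in the deposited list. The study used Cut&Tag, in which an antibody on chromatin directs a transposase to cut and tag nearby DNA, to look for targets of Smad4, the shared mediator of TGF-β and BMP signaling. Nuclei came from mouse hippocampus, with 1 library for an anti-Smad4 antibody and 1 for an IgG control antibody. Strain, genotype, and age are not given for these libraries in the sources used here. The only peak list used here belongs to the IgG control record and carries no antibody in its name. The study describes the peaks of this experiment, in nearly the number listed here, as those of Smad4, which differs from the record that holds the list. The peaks below are therefore not ascribed to Smad4 or to IgG, no antibodies were compared, and no replicate error could be measured.

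App encodes the amyloid precursor protein, a membrane protein. Cleavage by the α-secretase Adam10 precludes formation of amyloid-β, whereas cleavage by the β-secretase Bace1 followed by γ-secretase, a complex that includes Psen2 and nicastrin (Ncstn), releases it. Apoe, a lipid carrier made mainly by astrocytes, influences amyloid-β clearance. Mapt encodes tau, a microtubule-binding protein of axons, and the kinases Gsk3b and Cdk5 phosphorylate it.

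Of the 9 genes, App, Psen2, Mapt, and Ncstn had a peak, and Bace1, Adam10, Gsk3b, Cdk5, and Apoe had none. By the same rule 16.3% of all protein-coding genes had a peak, and 22.6% of those nearest in length to the 9 genes. App and Psen2 had 2 peaks each, and Mapt and Ncstn had 1 each. The strongest of the 6 lay at Psen2, the weakest at App, and only the Ncstn peak covered a listed transcription start site (TSS) of its gene.

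**Figure D1:**
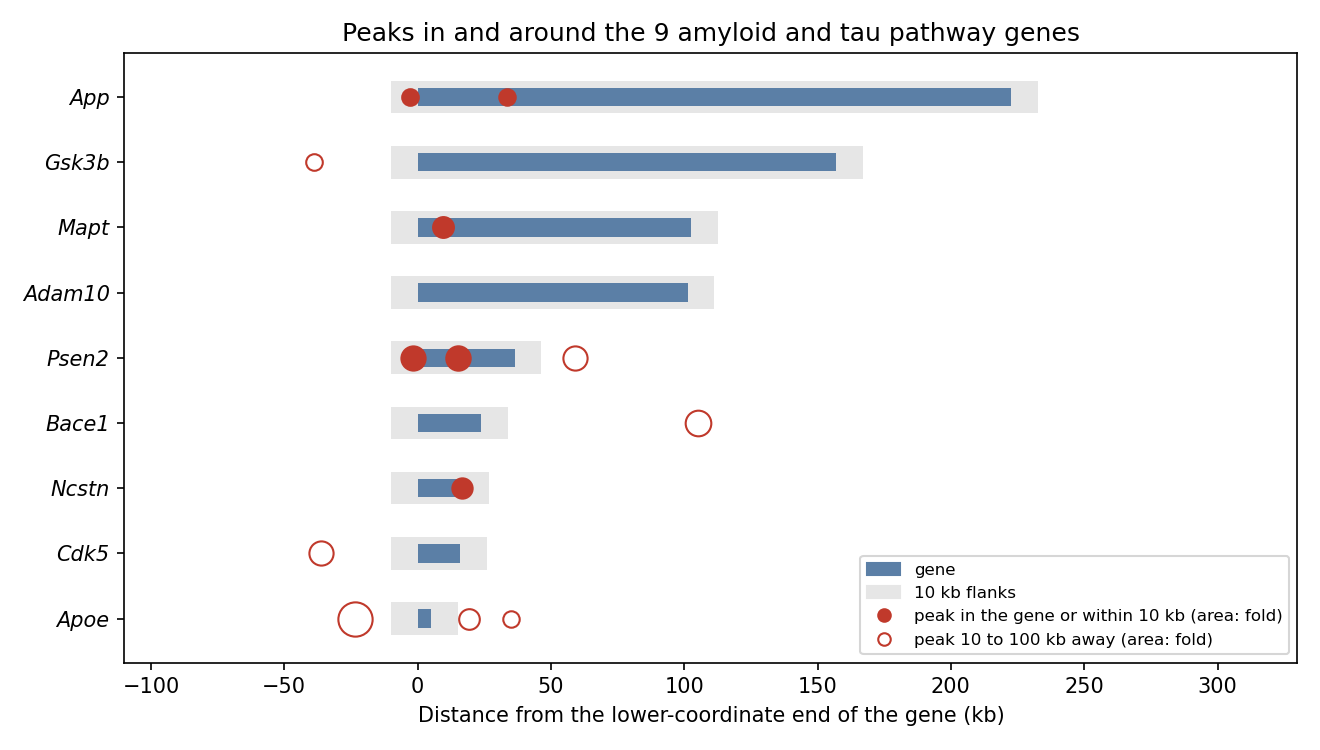
Each row is a gene, drawn from its lower-coordinate end (0) in kb, with the 10 kb flanks in gray. Filled circles are the 6 peaks in the genes or flanks, open circles are peaks 10 to 100 kb away, and the area of a circle grows with fold enrichment; Adam10 has no peak within 100 kb.

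The Ncstn peak lay where the 5′ ends of Ncstn and of Copa, which encodes a subunit of the COPI vesicle coat, overlap. In the RefSeq promoter table for GRCm38.p6, Ncstn starts at position 172082749 of chromosome 1 on the minus strand and Copa at 172082529 on the plus strand. The start sites are 220 bp apart and the genes run across each other. The peak, at chr1:172082414-172082786, was 373 bp wide and covered both start sites. Its summit was 3 bp from the Copa start site and 223 bp from that of Ncstn, so the peak cannot be assigned to either gene alone. The sequence around both starts is shown because Ncstn was the only member with a start site under a peak. Each sequence runs 5′ to 3′ on the strand of its gene, from 250 bases before the start site through the first 30 bases from it, with the bases under the peak in capitals.
Ncstn (minus strand, chr1:172082720-172082999): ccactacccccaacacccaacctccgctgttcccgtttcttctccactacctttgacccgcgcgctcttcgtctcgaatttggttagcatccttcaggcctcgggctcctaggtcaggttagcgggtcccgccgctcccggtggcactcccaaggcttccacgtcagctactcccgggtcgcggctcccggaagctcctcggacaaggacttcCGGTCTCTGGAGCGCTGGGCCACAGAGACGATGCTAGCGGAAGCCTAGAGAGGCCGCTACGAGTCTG
Copa (plus strand, chr1:172082279-172082558): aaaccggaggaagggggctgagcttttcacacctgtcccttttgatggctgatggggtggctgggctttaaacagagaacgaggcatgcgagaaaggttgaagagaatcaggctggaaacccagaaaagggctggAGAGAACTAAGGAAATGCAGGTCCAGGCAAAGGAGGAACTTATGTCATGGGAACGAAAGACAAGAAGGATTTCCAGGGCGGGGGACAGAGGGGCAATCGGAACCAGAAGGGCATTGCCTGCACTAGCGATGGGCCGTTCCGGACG
In the Ncstn sequence 67 bases were under the peak, 37 of them before the start site, and in the Copa sequence 145 bases were, 115 of them before the start site.

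The Ncstn peak was 4.30-fold enriched, with a −log10 q of 2.48. Fold enrichment is the number of fragments over the summit (the pileup) relative to the background that the peak caller expected there, with 1 added to each, and q is its p-value adjusted over the genome. The pileup, recovered from the deposited values, was 4 fragments against a background of 0.162. By q the peak ranked 1737 of 5326. Of the 9 genes, 6 have entries in the promoter table, with 9 start sites in all, and this was the only one of the 9 windows of 300 bases around them that a peak overlapped. Among all 32851 windows in the table, 440 (1.34%) were under a peak.

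Psen2 had the strongest peaks of the set. One lay inside the gene at chr1:180242214-180242454, 15.2 kb from the nearer gene end and 3496 bp downstream of the second of its 2 listed start sites. Its pileup of 8 fragments was the highest at any of the 9 genes, although its background of 0.445 was also the highest, and its fold enrichment was 6.23 with a −log10 q of 4.70. The other lay outside the gene at chr1:180225094-180225337, 1667 bp beyond the 3′ end, where 6 fragments stood against a background of 0.142, the fold enrichment was 6.13, and −log10 q reached 5.40. By q these peaks ranked 543 and 427, respectively, above 89.8% and 91.3% of the list. No peak overlapped either of the Psen2 promoter windows. A further peak with the same fold enrichment and q as the one beyond the 3′ end lay outside the 10 kb window, 22.5 kb from the other end of the gene.

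The 2 peaks at App were weaker than those at the other members, though 53.4% of all peaks shared their pileup of 2. The peak inside the gene, at chr16:84986158-84986528, was 33.5 kb from the 3′ end and 187 kb downstream of the listed start site, and was 2.83-fold enriched, at a −log10 q of 1.36. The other, at chr16:84949705-84950265, lay 2401 bp beyond the 3′ end and was 2.88-fold enriched, at a −log10 q of 1.57. Both had a pileup of 2, the smallest in the list, and their values were shared exactly with 1098 and 1662 peaks, respectively, these included. By q they ranked 4182 and 2283, respectively, above 0.113% and 22.5% of the list. Neither would remain with a q-value of at most 0.01.

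Mapt had a peak inside the gene at chr11:104238630-104238932, 9221 bp from the lower-coordinate end, which is 8.98% of the way along the gene. Its fold enrichment was 4.54, its −log10 q 3.23, and its pileup 4 fragments against a background of 0.101, and it ranked 1038. It was thus stronger than the App peaks and weaker than those at Psen2. Mapt, Bace1, and Cdk5 have no entry in the promoter table, so distances for them were measured to gene ends only.

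**Figure D2:**
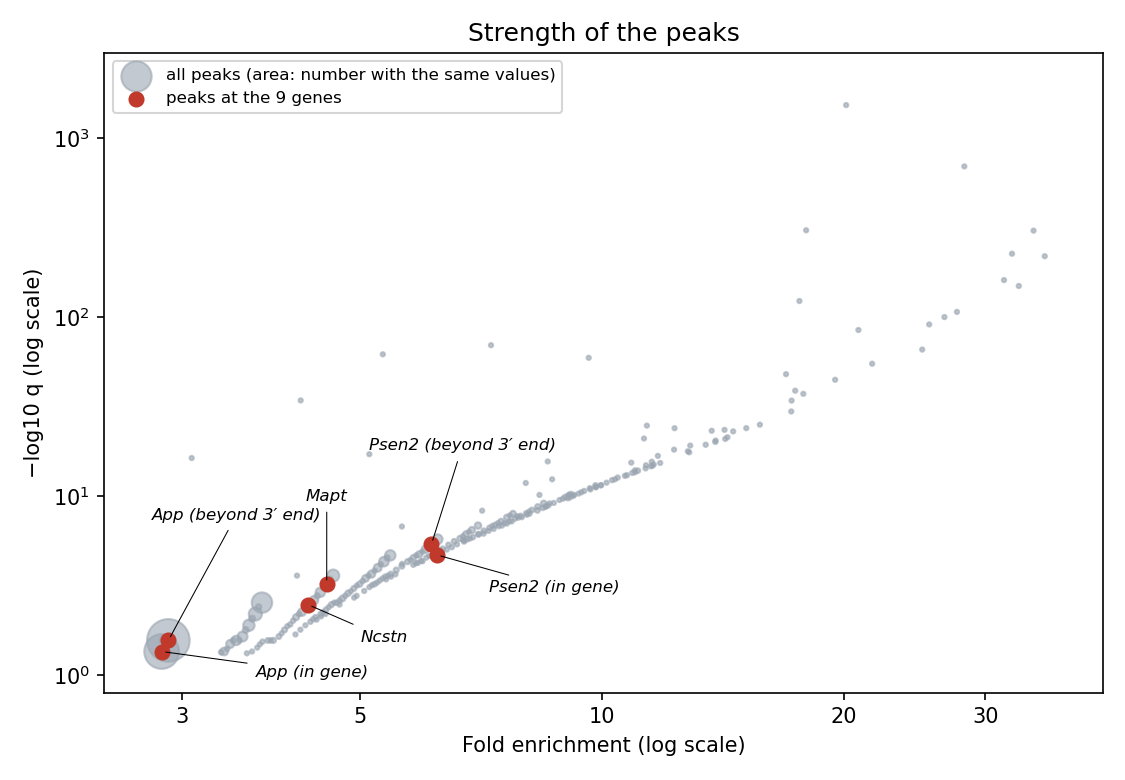
Fold enrichment (log scale) against −log10 q (log scale) for all 5326 peaks in gray, with the area of a point growing with the number of peaks that share its values, and the 6 peaks at the 9 genes in red. The App peaks sit on the lowest steps, Ncstn and Mapt at 4.30 and 4.54, and Psen2 at 6.13 and 6.23.

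Compared with the whole list, 4 of the 6 peaks (66.7%) had a pileup of at least 4, against 29.4% of all peaks. The same 4 had a q-value of at most 0.01, as did 38.6% of all peaks. The median fold enrichment was 4.42 at the 9 genes and 2.88 in the whole list, and the median width was 337 bp and 287 bp, respectively. These are descriptions of 6 peaks, of which Psen2 supplied 2, and were not tested.

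The 5 genes without a peak in or within 10 kb differed in how far away the nearest peak was. Apoe came closest, with a peak 14.1 kb away at chr7:19715397-19715711. This peak covered a listed start site of Tomm40, a gene for a mitochondrial import channel, and one of Gm38955. The peak had a pileup of 5, a fold enrichment of 4.46, and a −log10 q of 2.20. Apoe had 3 peaks within 100 kb in all. The strongest, 23.3 kb away inside the genes Apoc2 and Gm44805, was 12.3-fold enriched with 21 fragments at its summit and a −log10 q of 18.2, and ranked 42, while the third, 29.7 kb away inside Nectin2, had a pileup of 2. The nearest peak to Cdk5 was 36.1 kb away inside Nos3, the endothelial nitric oxide synthase gene, with a pileup of 6. For Gsk3b it was 38.8 kb upstream, with a pileup of 2, and Gsk3b was its nearest protein-coding gene. Bace1 had its nearest peak 81.2 kb away inside Sidt2, with a pileup of 7. Adam10 was farthest from any peak, at 208 kb, and its nearest peak, with a pileup of 21, was 35.8 kb from Lipc, which was nearer to it.

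Over all protein-coding genes the median distance to the nearest peak was 110 kb. The distances of Apoe, Cdk5, Gsk3b, and Bace1 were shorter than this, and 18.3%, 27.6%, 28.6%, and 42.7% of protein-coding genes, respectively, had a nearer peak. For Adam10, 67.2% did.

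**Figure D3:**
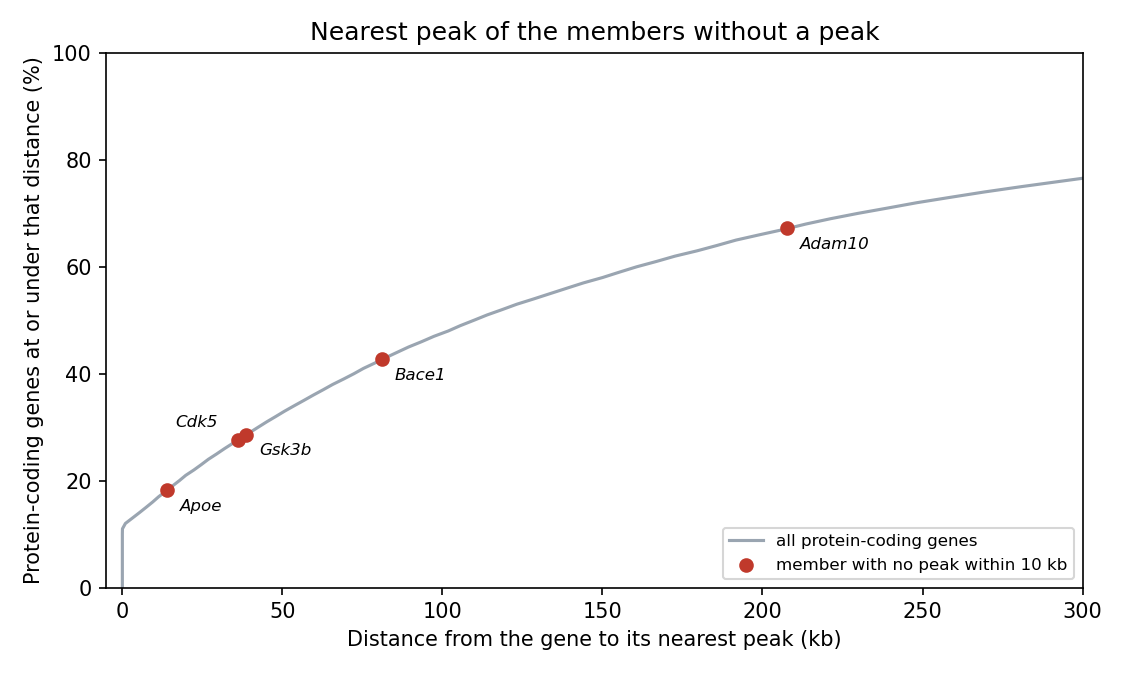
The curve gives the share of all protein-coding genes (%) whose nearest peak lies at or under a distance (kb), and the points are the 5 members without a peak within 10 kb. Apoe, at 14.1 kb, is nearest to a peak and Adam10, at 208 kb, farthest.

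Long genes are more likely to hold a peak, so the 9 genes, from 5.07 kb (Apoe) to 223 kb (App) long, were set beside genes of their own length. A peak overlapped or lay within 10 kb of 4 of the 9 genes (44.4%, 95% exact binomial interval 13.7% to 78.8%) and of 16.3% of all protein-coding genes. For each member the 200 protein-coding genes nearest to it in length were then counted. Together these were 1636 genes other than the members, of which 22.6% had a peak. The interval for the 9 genes holds both background shares, so a difference was not detectable with 9 genes. Added over the 9 members, the shares of their own 200 neighbors in length came to 2.15 genes, beside the 4 found.

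The comparison differed from gene to gene. App is 223 kb long, and 48.0% of the genes nearest to it in length had a peak. Mapt and Adam10 have almost the same length, 103 kb and 101 kb, with shares of 36.0% and 37.5%, and only Mapt had a peak. Similarly, Ncstn and Cdk5, at 16.8 kb and 16.0 kb, had shares of 9.0% and 9.5% (18 and 19 of 200 genes), and only Ncstn had a peak. The share was 15.5% for Psen2 and 15.0% for Bace1, of which only Psen2 had a peak. It was 35.5% for Gsk3b and 8.50% for Apoe, both without a peak. Among the members with a peak, Ncstn and Psen2 had the lowest shares, and they are also the shortest of these. The Ncstn peak also covered the start site of Copa.

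**Figure D4:**
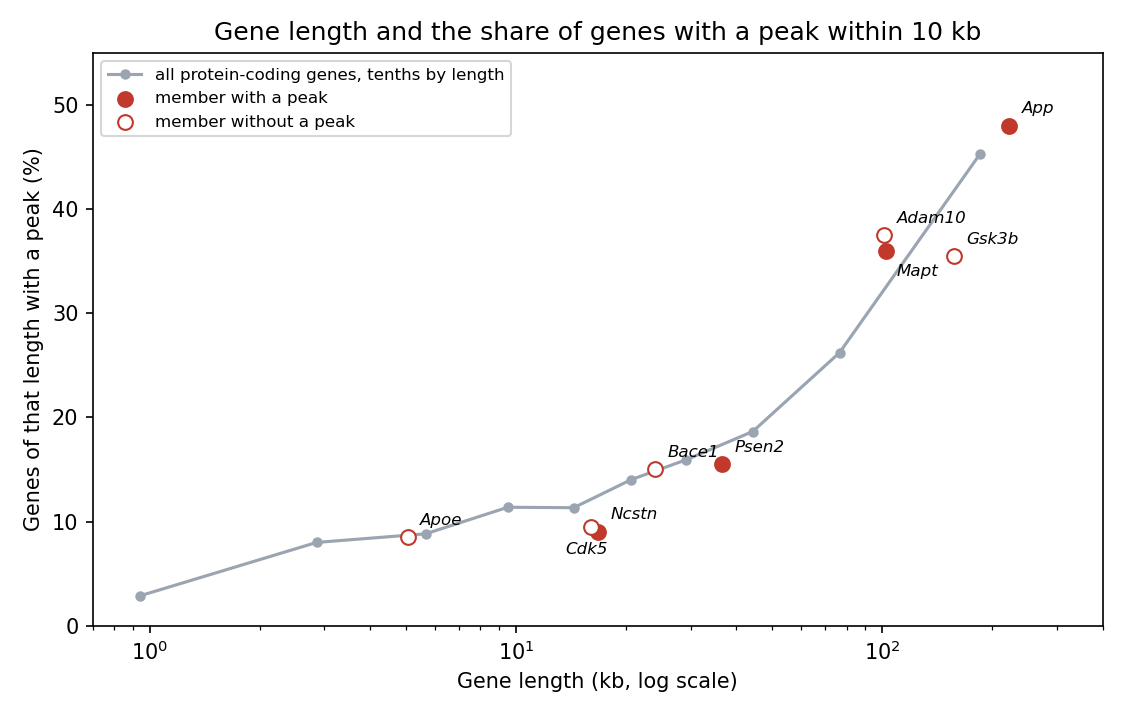
Share of protein-coding genes with a peak in the gene or within 10 kb (%) against gene length (kb, log scale). The gray line joins 10 classes of all protein-coding genes by length, from 2.88% in the shortest to 45.3% in the longest, and each circle is a member, placed at the share of the 200 genes nearest to it in length, filled if the member had a peak.

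Per length, the 9 genes with their flanks spanned 0.862 Mb and held 6.96 peaks per Mb (95% exact Poisson interval 2.55 to 15.2). All protein-coding genes with their flanks held 2.72 peaks per Mb, which lies within that interval. Leaving out Psen2, the gene that counted most, gave 4.97 peaks per Mb (1.35 to 12.7). The intervals cover counting error only, and peaks near each other are not independent.

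By position, 3 of the 9 genes (33.3%, 95% exact binomial interval 7.49% to 70.1%) had a peak within 3 kb of a gene end, as did 5.30% of all protein-coding genes and 5.13% of the 1636 nearest in length to the members. This count was added after the data had been seen. At App and Psen2 this was the 3′ end, with the peak beyond it, and at Ncstn the 5′ end. Among 68 other genes listed for the same pathways, 3 (4.41%, 0.919% to 12.4%) had such a peak. The intervals cover counting error only, and no test was made because the 9 genes were chosen with earlier results of this list known. With a q-value of at most 0.01, likewise chosen after seeing the data, Psen2 and Ncstn remained (22.2%, 2.81% to 60.0%), beside 2.71% of all protein-coding genes. The App peak that dropped out had a pileup of 2. The Ncstn peak lay over the start site of Copa as well, so it cannot be assigned to Ncstn alone.

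The promoter windows of the 6 listed members were then searched for motifs known for Smad proteins, CAGAC, GTCTAGAC, and GGCGCC, on both strands, with overlaps between motifs allowed. The motif CAGAC or its complement GTCTG occurred in at least 1 window of App, Psen2, Gsk3b, Apoe, and Ncstn, and not in that of Adam10. The window at the second start of Psen2 and that at the second of the 3 starts of Apoe lacked it. This is a count by gene, whereas the shares that follow are of single windows. It is short, and 49.6% of all 32851 windows held it, compared with 52.3% of the 440 windows under a peak. GTCTAGAC was in none of the members' windows and in 0.213% of all windows and 0.455% (2) of those under a peak. GGCGCC was in that of Gsk3b only, and in 11.9% of all windows and 19.5% (86) of those under a peak. GC content was not matched between these sets of windows. The match in the Ncstn window began 25 bases after the start site, under the peak. It is shown for comparison with those of the other 4 genes, none of which was under a peak (for Apoe and Psen2, that of the first listed start site), with the match in capitals and 10 bases on each side.
Ncstn (25 bases after the start site): gccgctacgaGTCTGgaagggacct
App (187 bases before the start site): acttggttccCAGACcccatcggga
Psen2 (25 bases before the start site): ccgggggcgtGTCTGaggcgctggc
Gsk3b (136 bases before the start site): ctcgacgctgCAGACcaatgagatg
Apoe (135 bases before the start site): tacaatgcacCAGACcccgcgggga
Of the 9 windows, 6 had a higher GC content than the median window of the table, 52.7%. GC content was 63.3% at Ncstn, 71.0% at App, 65.7% and 47.7% at the first and second start of Psen2, 73.3% at Adam10, 63.0% at Gsk3b, and 51.0% to 57.7% at the 3 starts of Apoe. The window under a peak, that of Ncstn, thus lay within the range of those without one.

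Other genes of the same pathways were examined in the same way, from lists by known role. Of 21 genes for processing of the amyloid precursor protein, 6 (28.6%) had a peak in the gene or within 10 kb, App, Psen2, and Ncstn included. By role, these were 1 of 3 precursor genes (App, but not Aplp1 or Aplp2), 1 of 3 α-secretases (Adam9), 0 of 2 β-secretases (Bace1 and Bace2), 2 of the 6 γ-secretase subunit genes counted (Psen2 and Ncstn, but not Psenen or the 3 Aph1 genes), and 2 of 6 adaptors that bind the precursor (Apbb1 and Apbb2). Of the genes nearest in length to these 21, 22.7% had a peak on average, and 16.3% of all protein-coding genes did. The roles were set after the peaks at these genes had been seen, and each holds too few genes for a comparison with these shares. The Adam9 peak, at chr8:25017030-25017229, covered the higher-coordinate end of Adam9 and also overlapped Tm2d2. Its pileup was 9, its fold enrichment 7.22, and its −log10 q 6.40, so by each measure it was stronger than every peak at the 9 members.

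Of 22 genes for amyloid transport and clearance, 5 (22.7%) had a peak, and Apoe was not among them. Rtn3, a reticulon that binds Bace1, was the only one of these whose peak came within 3 kb of either end. That peak lay 2024 bp outside Rtn3 at chr19:7423446-7423871 and overlapped 2700081O15Rik, with a fold enrichment of 3.57 and a pileup of 3. Of 34 genes for tau, tau kinases, and tau phosphatases and partners, 11 (32.4%) had a peak, Mapt among them and Gsk3b and Cdk5 not. Only Ttbk1, a tau-tubulin kinase, had a peak this near to an end, 2211 bp inside the 3′ end, where the fold enrichment was 3.70 and the pileup 3. The genes nearest in length would sum to 4.77, 4.53, and 8.52 genes with a peak in the 3 lists. Without the 9 members, 18 of the 68 other genes (26.5%) had a peak, beside a sum of 15.7.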

How the data were processed

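Cut&Tag reads from hippocampal nuclei were paired-end, and the authors called peaks from uniquely mapped reads with MACS2 at a cutoff of 0.05. The submitters' processing notes also name BWA, HOMER, and mm10. Whether IgG served as the peak caller's control is not given in the sources used here. The authors deposited, for each peak, a score (the whole part of 10 times −log10 q), a fold enrichment, and −log10 p and q. These were used as written. Library depth is unknown.

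Starts were counted from 1. Pileups were computed from the deposited fold enrichment and −log10 p under a Poisson background, and 1 whole number fitted each of the 5326 peaks within 0.002. Counting and recovery were tested on simulated data. RefSeq tables gave gene spans and, for 6 of the 9 members, start sites and sequences. Intervals are exact binomial (Clopper-Pearson) or exact Poisson, at 95%. No significance test was run, since there was 1 peak list. Random draws of genes were replaced by counting all 200 genes nearest in length. The genes named are the 9 members, genes at their peaks, nearest genes of the closest peaks, and listed pathway genes whose peak came within 3 kb of either end. In counts by role, genes outside this rule are also named. The result for 1 pathway gene is not given, and it was left out of the lists. The 9 genes, the lists, and the roles were chosen with earlier results of these data known, and the roles after the peaks at these genes had been seen. Alternatives were stricter peak thresholds, summits, other windows, stricter overlap, nearest-gene assignment, all RefSeq gene types, 100 or 400 genes nearest in length, and other motifs. Python 3.11.15, NumPy 2.4.6, pandas 2.3.3, SciPy 1.17.1, and Matplotlib 3.10.9 were used.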

Additional observations from a re-analysis of the deposited data

How the results depend on the processing

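No paired analysis was possible because neither antibody had a replicate and 1 peak list was used. Low pileups limit every count: 53.4% of all peaks, and 2 of the 6 at the members, rest on a pileup of 2. The 4 members with a peak became 3 (without App) at a q-value of at most 0.01 or a pileup of at least 3, 2 (Psen2 and Mapt) at a q-value of at most 0.001, and 1 (Psen2) at a fold enrichment of at least 5, with 3 and 2 peaks left at the last 2 limits. The sum of the shares of genes nearest in length fell from 2.15 to 1.04, 1.21, 0.525, and 0.375 in the same order of settings, and the members' count was above it under each. These settings keep parts of the same 6 peaks, so they are not separate evidence, and no difference was tested. With a 25 kb window Apoe joined, giving 5 members and 9 peaks. Summits, stricter overlap, and a 3 kb window left 4 members and 6 peaks, and without flanks there were 4 members and 4 peaks. Nearest-gene assignment also left 4 members and 6 peaks, but there the Ncstn peak, which overlaps Copa as well, was counted for Ncstn. With 100 or 400 genes nearest in length the sum was 2.16. The share of all protein-coding genes with a peak, 16.3%, became 7.90% at a q-value of at most 0.01, 4.41% at 0.001 or less, 3.46% at a fold enrichment of at least 5, 9.72% at a pileup of at least 3, 10.9% without flanks, 13.0% and 23.1% with 3 and 25 kb windows, and 11.0% over genes of every type. Of the 77 pathway genes, 22 had a peak, which became 14 and 8 under the stricter q-values and 7 under the fold enrichment limit. The shares of the genes nearest in length to these summed to 17.8, 8.755, 5.07, and 3.875 genes, respectively. The motif CAGAC was found at 5 members, GGCGCC at 1, and GTCTAGAC at 0. Fewer peaks or other windows changed these counts by construction.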

Other observations

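The genes in this part were chosen after their values were seen. Among the genes for amyloid transport and clearance, Picalm, which encodes a clathrin assembly protein, held the strongest peak of the 3 pathway lists by q, at chr7:90198312-90198615 inside the gene and 10.8 kb from its nearer end, where the pileup was 10, the fold enrichment 9.0, and −log10 q 9.89 (rank 103). Ppp3ca, which encodes a catalytic subunit of the phosphatase calcineurin, held 5 peaks, more than any other gene of these lists. Their pileups were 2, 2, 7, 3, and 2 from its lower to its higher end, and 53.4% of all peaks had a pileup of 2. Ppp3ca is 268 kb long, and in the longest length class of protein-coding genes, which includes it, 45.3% had a peak. The number of peaks per gene was not compared at this length. The peak in the kinase gene Mapk8 ended 30 bp from a listed start site, with a pileup of 2.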
